A study of Mus musculus with 6 samples.

Results

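Expression of 10 genes of the RGS family, the regulators of G protein signalling, was examined in RNA from newborn mouse striatum: Rgs2, Rgs4, Rgs7, Rgs8, Rgs9, Rgs10, Rgs14, Rgs16, Rgs17 and Rgs20. They were chosen by name, and all 10 of 10 were found by their Ensembl identifiers among the 47062 genes of the deposited table. All 10 also lay above the filter on low values that left 16666 genes for the test. The striatum, dissected together with the subventricular zone, came from mice at postnatal day 0 on a mixed background of C57BL/6J, 129S6 and CD1. The 3 control libraries were from Sp9Flox/Flox littermates, and the 3 mutant libraries from Drd2-Cre;Sp9Flox/Flox animals, so both groups carried the floxed alleles of the zinc finger factor gene Sp9 and the groups differed by a Cre recombinase driven by the dopamine D2 receptor gene. No group carried Drd2-Cre without the floxed alleles, so effects of the Cre and of the deletion cannot be told apart. Whether a library was 1 animal or a pool is not in the labels, and p-values cover the spread among these libraries, which may be technical.

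An RGS protein binds the active, GTP-bound alpha subunit of a heterotrimeric G protein and speeds the hydrolysis of GTP, which shortens the signal of the receptor upstream. In striatal projection neurons the receptors for dopamine, adenosine, acetylcholine and opioids all signal through such G proteins, and the D1 and D2 dopamine receptors act on cyclic AMP in opposite directions through them. The family is divided by sequence into small proteins with little beyond the RGS domain (the R4 group, here Rgs2, Rgs4, Rgs8 and Rgs16), larger ones that are stable only with the beta subunit Gnb5 (the R7 group, Rgs7 and Rgs9), the R12 group (Rgs10 and Rgs14) and the RZ group (Rgs17 and Rgs20), whose members can act on the alpha subunit Gnaz. Rgs9 is known as an RGS protein enriched in the striatum.

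The libraries held 16237067 to 19457784 fragments in genes, estimated from the authors' count columns, which carry a scaling factor for each library and are called scaled counts here. As a check of the labels, Sp9 had an FPKM (fragments relative to transcript length in kilobases and to the library's mapped fragments) of 20.1, 19.0 and 17.3 in the controls, against 8.37, 7.93 and 9.67 in the mutants (values are listed in the order of replicates 1 to 3 throughout). The summed FPKM of 8 markers of the D2, or indirect pathway, neurons was 237 to 271 in control and 108 to 138 in mutant libraries. That of 8 markers of the D1, or direct pathway, neurons was 441 to 473 and 454 to 502. Both lists were chosen with earlier results of these data known, so their counts describe these libraries and are no test. An unadjusted p under 0.05 with lower mutant values was found for 6 of the 8 indirect pathway markers (2.99% of all genes), of which 2 passed an adjusted p of 0.05, Adora2a (44.3 ± 3.26 and 4.11 ± 1.18 FPKM, adjusted p = 0.00852, limma) and Grik3 (25.4 ± 1.81 and 11.1 ± 0.736, adjusted p = 0.0156, limma; SD, n = 3 each). The other 2 of the 8, Drd2 (45.0 ± 3.25 and 44.4 ± 1.97) and Six3 (26.8 ± 4.01 and 28.2 ± 4.70), had overlapping groups. On scaled counts 5 of the 8 passed the adjusted threshold (limma), against 0.143% of 16125 genes. They were Adora2a, Grik3, Gpr6, P2ry1 and Ptprm. Of the direct pathway markers none passed the adjusted threshold. Drd1, Sfxn1 and Pdyn had mutant means of 1.66, 1.36 and 1.43 times the control and Isl1 of 0.850 times. Each had an unadjusted p under 0.05 (limma), against 5.65% of all genes in either direction. On scaled counts the groups of Pdyn overlapped. Tac1, the largest part of that sum, had 256 ± 12.6 and 254 ± 34.2. In bulk tissue, fewer cells of a type and less RNA per cell cannot be told apart. The part of these marker differences in the RGS values was not tested.

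Newborn control striatum held the 10 genes at 3 broad levels of FPKM and 1 much lower level. Rgs4, Rgs2 and Rgs8 had mean control FPKM of 70.1 ± 15.5, 69.6 ± 6.46 and 58.1 ± 5.48 (SD, n = 3 each), and the ranges of neighbours in this order overlapped. Rgs10, Rgs9 and Rgs7 followed at 26.6 ± 4.21, 22.9 ± 2.69 and 20.8 ± 0.884, again with overlapping ranges between neighbours. The lowest control FPKM of Rgs8 was 54.6 and the highest of Rgs10 was 31.1, so these 2 groups were apart. Rgs17 lay just under Rgs7 (18.4 ± 1.11; its highest control library had 19.1, the lowest of Rgs7 19.8). The lower members were Rgs20 at 9.93 ± 0.548, Rgs16 at 8.71 ± 0.309 and Rgs14 at 0.841 ± 0.192, and their control ranges did not overlap. By FPKM the 3 highest genes thus all belonged to the R4 group, while Rgs16 of the same group was the second lowest. On scaled counts, which are not divided by transcript length, the order was another. There Rgs10 averaged 313 in the controls, below Rgs17 (2054), Rgs9 (1036), Rgs7 (880) and Rgs16 (388) and above Rgs20 (277).

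**Figure D1:**
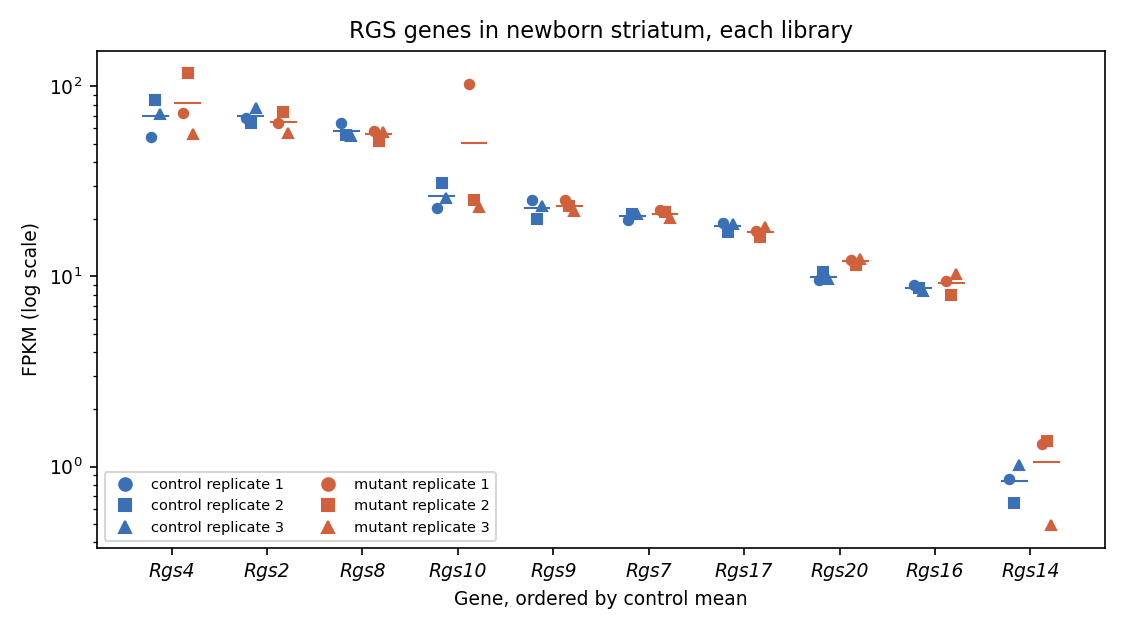
FPKM (log scale) of the 10 RGS genes in each of 6 libraries, ordered by control mean; blue marks are control and orange marks mutant libraries, and short lines are group means. Rgs20 is the gene whose groups do not overlap, and the mutant mean of Rgs10 rests on mutant replicate 1 at 103.

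None of the 10 genes passed an adjusted p of 0.05 in limma's test of mutant against control across all 16666 genes (Benjamini-Hochberg), and 1 of them, Rgs20, had an unadjusted p under 0.05. Over all genes tested, 0.0600% passed the adjusted threshold and 5.65% had an unadjusted p under 0.05, so 1 of 10 is not read as more than the background. The groups did not overlap in 1 of 10 genes, against 11.4% of all genes. By the rule that the study's design states, both a 2-fold change and an unadjusted p no higher than 0.05, none of the 10 was called, against 0.342% of all genes. The median log2 difference of the 10 genes, mutant minus control on the log2(FPKM + 0.5) scale, was 0.056, with 7 estimates above 0 and 3 below, and 49.9% of all genes had an estimate above 0. The median was 0.003 without mutant replicate 1 and 0.021 without mutant replicate 2. On scaled counts, 0 of 10 passed the adjusted threshold (0.143% of 16125 genes), 1 had an unadjusted p under 0.05 (6.42%), and the median was 0.037. Since 3 against 3 libraries allow no exact two-sided permutation p under 0.1, the statements below rest on the limma fit and on the ranges.

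**Figure D2:**
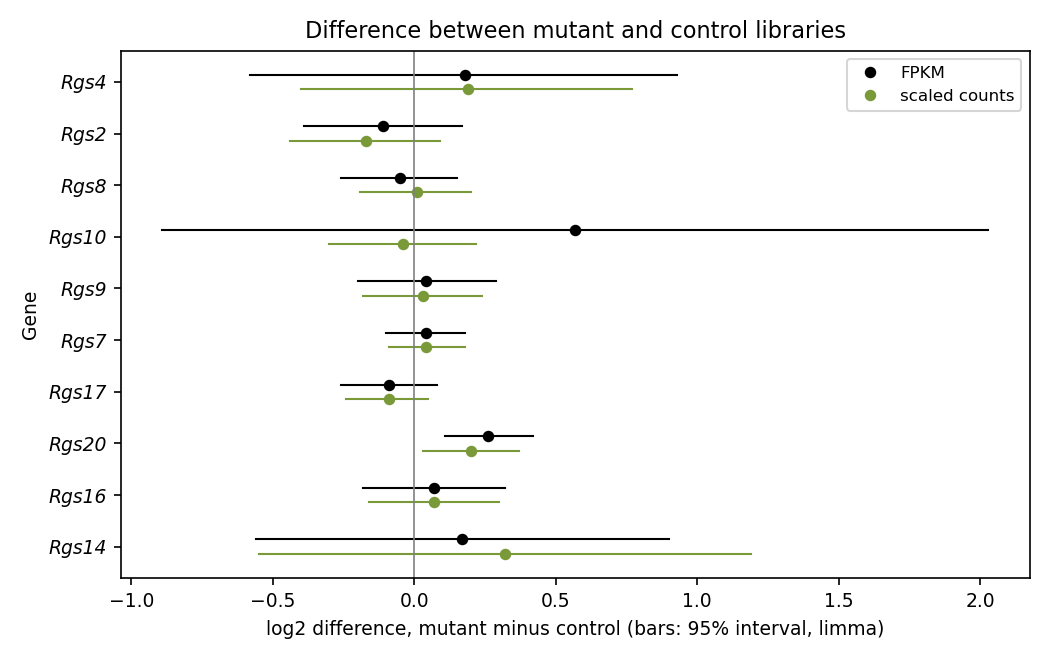
Log2 difference, mutant minus control, of each RGS gene with its 95% interval (limma), on FPKM (black) and on scaled counts (green). The interval of Rgs20 lies above 0 on both measures, while Rgs10 is at 0.57 on FPKM and -0.04 on scaled counts.

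Within the RZ group, Rgs20 (ENSMUSG00000002459; GRCm38 chromosome 1, 4909576 to 5070285, minus strand) had the smallest p of the 10. Its FPKM was 9.53, 10.6 and 9.71 in the controls and 12.2, 11.5 and 12.3 in the mutants. Every mutant library lay above every control library. The control mean was 9.93, the SD was 0.548 for control and 0.448 for mutant libraries (n = 3 each), and the mutant mean was 1.21 times the control mean. The log2 difference was 0.26 ± 0.0625 (SE; 95% interval 0.11 to 0.42). The unadjusted p of Rgs20 was 0.00646 and the adjusted p 0.695 (limma), and an exact permutation test over the libraries, two-sided, gave 0.1, the lowest p of this design. On scaled counts the groups of Rgs20 did not overlap either, as for 881 higher and 1047 lower genes of the 16125 tested. The log2 difference there was 0.20 (95% interval 0.03 to 0.37, unadjusted p = 0.0276, adjusted p = 0.685, limma). The scaled counts were 271, 287 and 274 in the controls and 322, 316 and 317 in the mutants. These values stand for 240 to 330 fragments per library. The first bases of Rgs20 overlap those of Atp6v1h, a proton pump subunit gene on the opposite strand, by 268 bases, and the sources used here do not say if counting used strand. The FPKM of Atp6v1h was 62.0 ± 2.65 in control and 62.7 ± 3.76 in mutant libraries (SD, n = 3 each).

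Among 9342 named genes that averaged an FPKM of 5 or more, the 3 whose log2 values over the 6 libraries followed Rgs20 most closely were Sap30l, Etfrf1 and Rfc5. Likeness was the root mean square difference of log2(FPKM + 0.5) after each gene's mean was taken off, and it was 0.025, 0.033 and 0.046 for these 3 genes. Sap30l, for example, had 12.4, 14.2 and 13.2 in the controls and 16.2, 14.8 and 16.2 in the mutants, and an adjusted p of 0.786 (limma). With 6 libraries and this many genes compared, such closeness is a description of these libraries only.

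The other RZ gene among the 10 was Rgs17 (ENSMUSG00000019775, chromosome 10, 5825663 to 5922400). Its FPKM was 19.1, 17.1 and 18.9 in the controls and 17.4, 16.1 and 18.1 in the mutants. Its groups overlapped and its log2 difference was -0.09 (95% interval -0.26 to 0.08, adjusted p = 0.888, limma). These RZ genes of the 10, Rgs20 and Rgs17, therefore had estimates on either side of 0, a difference between genes that was not tested. Rgs19, an RZ gene outside the 10, had a log2 difference of -0.15 (95% interval -0.32 to 0.03, adjusted p = 0.877, limma).

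Of the 10 genes 6 lie on chromosome 1, among them all R4 genes of the 10, with the close neighbours Rgs8 and Rgs16. In that group the largest spread was that of Rgs4 (ENSMUSG00000038530; chromosome 1, 169741477 to 169747642), a regulator of Gi and Gq signalling in neurons. The FPKM of Rgs4 was 54.0, 85.0 and 71.3 in the controls and 72.8, 117 and 55.9 in the mutants. Mutant replicate 2 was the highest library and control replicate 1 the lowest, and the groups overlapped. The SD was 22.2% of the mean in the controls and 38.4% in the mutants, so the log2 difference of 0.18 had a 95% interval of -0.58 to 0.93 (adjusted p = 0.957, limma). Scaled counts ran in the same order, from 2444 in control replicate 1 to 5358 in mutant replicate 2. Without mutant replicate 2 the log2 difference of Rgs4 was -0.11. The summed FPKM of 9 markers of cortical glutamatergic neurons, cells that can enter a striatal dissection, was 22.8, 24.5 and 8.56 in the controls and 36.9, 9.01 and 61.3 in the mutants, and none of the 9 was at 0 in every library. Their part in the Rgs4 values was not tested.

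Rgs2 (ENSMUSG00000026360; chromosome 1, 143999338 to 144004161), which acts mainly on Gq, overlapped Rgs4 in level and had a smaller SD. It had 68.5, 63.8 and 76.5 FPKM in the controls and 64.3, 73.1 and 56.5 in the mutants. Both the highest and the lowest library were replicate 3, of the control and of the mutant group, and the ranges overlapped. The log2 difference was -0.11 (95% interval -0.39 to 0.17, adjusted p = 0.917, limma).

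Rgs8 (ENSMUSG00000042671; chromosome 1, 153653025 to 153700323) and Rgs16 (ENSMUSG00000026475; chromosome 1, 153740349 to 153745468) lie 40025 bases apart on the same strand and differed in level. Rgs8 had 64.4, 55.2 and 54.6 FPKM in the controls and 58.3, 51.8 and 57.6 in the mutants, with a log2 difference of -0.05 (95% interval -0.26 to 0.15). Its neighbour Rgs16 had 9.02, 8.71 and 8.40 in the controls and 9.44, 7.94 and 10.3 in the mutants, with a difference of 0.07 (-0.18 to 0.32). Both genes had overlapping groups, with adjusted p of 0.953 and 0.948 (limma). The mutant libraries of Rgs16 spread to both sides of its controls, with an SD of 12.7% of the mean against 3.55%. On scaled counts the estimate for Rgs8 was 0.01 (95% interval -0.19 to 0.20).

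The R7 members had estimates close to 0 and overlapping groups. Rgs9 (ENSMUSG00000020599; chromosome 11, 109225355 to 109298129), the striatal member, had 25.3, 20.0 and 23.4 FPKM in the controls and 25.1, 23.5 and 22.0 in the mutants. All 3 mutant libraries of Rgs9 lay within the control range, and the log2 difference was 0.04 (95% interval -0.20 to 0.29, a fold of 0.868 to 1.22; adjusted p = 0.972, limma). Rgs7 (ENSMUSG00000026527; chromosome 1, 175059087 to 175492500) had 19.8, 21.4 and 21.3 in the controls and 22.3, 21.7 and 20.3 in the mutants. Its SD was 4.25% and 4.87% of the mean, and its log2 difference of 0.04 had an interval of -0.10 to 0.18, which spans folds of 0.933 to 1.13 (adjusted p = 0.944, limma).

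Of the R7 partners, Gnb5, the obligate beta subunit, had 26.4 ± 3.73 FPKM in control and 26.0 ± 3.45 in mutant libraries (log2 difference -0.02, 95% interval -0.36 to 0.32). Rgs7bp, the membrane anchor of R7 complexes, had 7.18 ± 0.377 and 8.25 ± 1.38, and the orphan receptor Gpr158, which binds Rgs7, had 0.830 ± 0.130 and 1.19 ± 0.277 (SD, n = 3 each). The latter had an unadjusted p of 0.109 on FPKM and of 0.0321 on scaled counts, with adjusted p of 0.885 and 0.704 (limma). Rgs9bp and Gpr179 had mean FPKM under the filter of 0.5, at 0.0417 and 0.118 in the controls. Of the 3 R7 partners tested on FPKM, 0 passed the adjusted threshold and 0 had an unadjusted p under 0.05 (limma). On scaled counts 4 were tested and 0 passed, while 2 had an unadjusted p under 0.05, Gpr158 and Gpr179 (log2 difference 0.66, unadjusted p = 0.047, adjusted p = 0.767, limma), against 6.42% of all genes. The groups of both genes overlapped, and Gpr179 had scaled counts of 14.5 to 34.6 per library.

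Rgs10 (ENSMUSG00000030844; chromosome 7, 128373621 to 128418758), an R12 protein that is little more than an RGS domain and is known from microglia and neurons, had the largest estimate on FPKM, which came from 1 library. Its FPKM was 22.8, 31.1 and 25.9 in the controls and 103, 25.2 and 23.2 in the mutants. Mutant replicate 1 was 3.32 times the next highest library, and the other mutants, with a mean of 24.2, lay within the control range. The log2 difference was 0.57 with a 95% interval of -0.89 to 2.03 (adjusted p = 0.918, limma), and -0.12 without mutant replicate 1. The scaled counts of the same gene were 299, 342 and 298 in the controls and 330, 328 and 259 in the mutants, so mutant replicate 1 was 1.05 times the control mean there. On scaled counts the log2 difference of Rgs10 was -0.04 (95% interval -0.30 to 0.22, adjusted p = 0.973, limma).

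The 2 measures of Rgs10 therefore part in 1 library. A scaled count of 100 was worth an FPKM of 31.3 in mutant replicate 1 and of 7.62 to 9.11 in the other 5 libraries, a spread of 4.11 times. For the other 9 RGS genes the highest and the lowest such value differed by 1.01 to 1.13 times. Among the 11494 genes whose scaled counts averaged 100 or more, the median spread was 1.05. Of these genes 17 (0.148%), Rgs10 included, had a spread of at least 4.11. The annotation gives Rgs10 6 transcripts of 160 to 880 bases, and FPKM, unlike a count, depends on the transcript length it is divided by. The part of this in the value of mutant replicate 1 was not tested. The summed FPKM of 11 microglia markers was 42.3 to 46.3 in the controls and 45.5, 52.1 and 52.8 in mutant replicates 1 to 3, and none of the 11 was at 0 in every library. Their part in the Rgs10 values was not tested either.

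**Figure D3:**
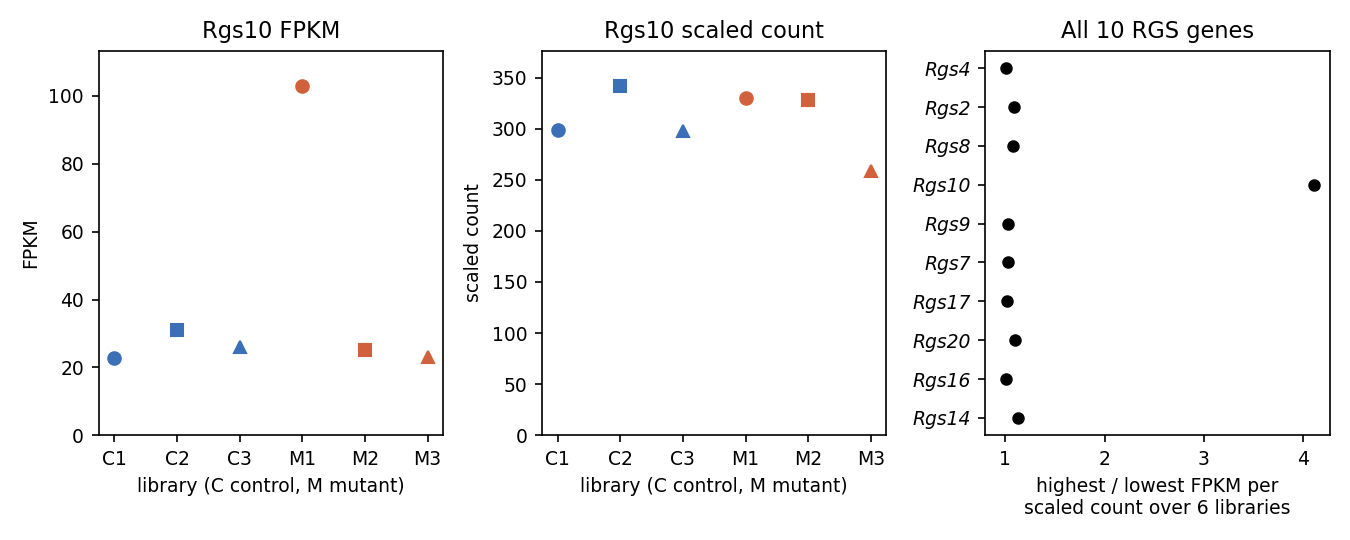
Left and middle, FPKM and scaled count of Rgs10 in control (C, blue) and mutant (M, orange) libraries; right, the highest over the lowest FPKM per scaled count across 6 libraries for each RGS gene. Mutant replicate 1 stands at 103 in FPKM and at 330 in scaled counts, within the range of the other libraries in the latter, and only Rgs10 among the 10 has a spread above 1.13.

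The second R12 gene, Rgs14 (ENSMUSG00000052087; chromosome 13, 55369732 to 55384687), a scaffold that also binds small GTPases, was the lowest of the 10. Its FPKM was 0.861, 0.639 and 1.02 in the controls and 1.31, 1.37 and 0.491 in the mutants. Mutant replicates 1 and 2 lay above the controls and mutant replicate 3 below them. These values stand for 20 to 66 fragments per library, and the log2 difference of 0.17 had a 95% interval of -0.56 to 0.90 (adjusted p = 0.957, limma), which spans folds of 0.678 to 1.87, so no difference was detectable at this depth and spread. The estimate was 0.01 without mutant replicate 2 and 0.47 without mutant replicate 3 (unadjusted p = 0.0529, adjusted p = 0.828, limma).

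The table holds 11 other RGS genes. Of these, 6 were tested with limma and none passed the adjusted threshold. Of the 6, 1 had an unadjusted p under 0.05, against 5.65% of all genes. Their median log2 difference was -0.149, with 1 estimate above 0. The 1 in both counts was Rgs3, with 4.36, 5.28 and 5.19 FPKM in the controls and 5.70, 6.06 and 5.97 in the mutants. Its groups did not overlap, as in 11.4% of all genes (log2 difference 0.24, unadjusted p = 0.0424, adjusted p = 0.858, limma). On scaled counts the groups of Rgs3 overlapped (233, 275 and 254 against 270, 312 and 284; unadjusted p = 0.0925, adjusted p = 0.844, limma). There the 1 gene of the 6 with an unadjusted p under 0.05, against 6.42% of all genes, was Rgs6. It was lower in the mutants (log2 difference -0.26, unadjusted p = 0.0459, adjusted p = 0.758, limma). Rgs19, of the RZ group, had 31.8 ± 2.42 and 28.7 ± 1.50, the R7 genes Rgs6 and Rgs11 17.7 ± 2.75 and 15.0 ± 1.39, and 19.4 ± 3.15 and 17.7 ± 2.76 (SD, n = 3 each). Rgs12, of the R12 group, had 18.5 ± 2.01 and 16.6 ± 0.969, and Rgs5, known from pericytes, 18.5 ± 1.06 and 16.4 ± 1.73. Rgs1, Rgs13, Rgs18, Rgs21 and Rgs22 had mean FPKM under 0.5 and were not tested, and Rgs21 is listed at 0 in every library.

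Of 11 tested alpha subunit genes of heterotrimeric G proteins, 0 passed the adjusted threshold. Of these 11, 3 had an unadjusted p under 0.05, all with lower values in the mutants (2.99% of all genes, as above). They were Gnao1, the major alpha subunit of neurons (354 ± 9.32 and 320 ± 8.59 FPKM), Gnal, which couples D1 dopamine and adenosine receptors to adenylyl cyclase in the striatum (192 ± 4.70 and 172 ± 10.1), and Gnas (278 ± 6.80 and 256 ± 10.3; SD, n = 3 each). The estimate for Gnas was -0.12 on FPKM and 0.08 on scaled counts. The adjusted p were 0.781, 0.833 and 0.858 (limma). Of 12 tested beta and gamma subunit genes none passed. Lower mutant values with an unadjusted p under 0.05 were found for 2, Gng2 and Gng7, against 2.99% of all genes. Gng2 had 277 ± 7.87 and 254 ± 8.13 FPKM (unadjusted p = 0.028, adjusted p = 0.847, limma). Gng7, the gamma partner of Gnal in the striatum, had 237, 218 and 234 FPKM in the controls and 181, 187 and 175 in mutant libraries (log2 difference -0.34, 95% interval -0.46 to -0.22, adjusted p = 0.289 on FPKM and 0.0893 on scaled counts, limma). Of 7 tested adenylyl cyclase genes none passed and 1, Adcy1, was lower at an unadjusted p under 0.05, against 2.99% of all genes. It had 106 ± 4.25 and 89.5 ± 8.36 FPKM (unadjusted p = 0.0189, adjusted p = 0.795, limma). On scaled counts 2 alpha subunit genes, 2 beta and gamma subunit genes and 2 cyclase genes had an unadjusted p under 0.05 (6.42% of all genes), with none past the adjusted threshold. These were Gnao1, Gnal, Gng7, Adcy1 and Adcy9, lower in the mutants, and Gng12, with higher values there (log2 difference 0.36 on scaled counts). The medians on FPKM of the alpha, the beta and gamma, and the cyclase lists were -0.03, 0.037 and -0.034, beside 0.056 for the 10 RGS genes.

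**Figure D4:**
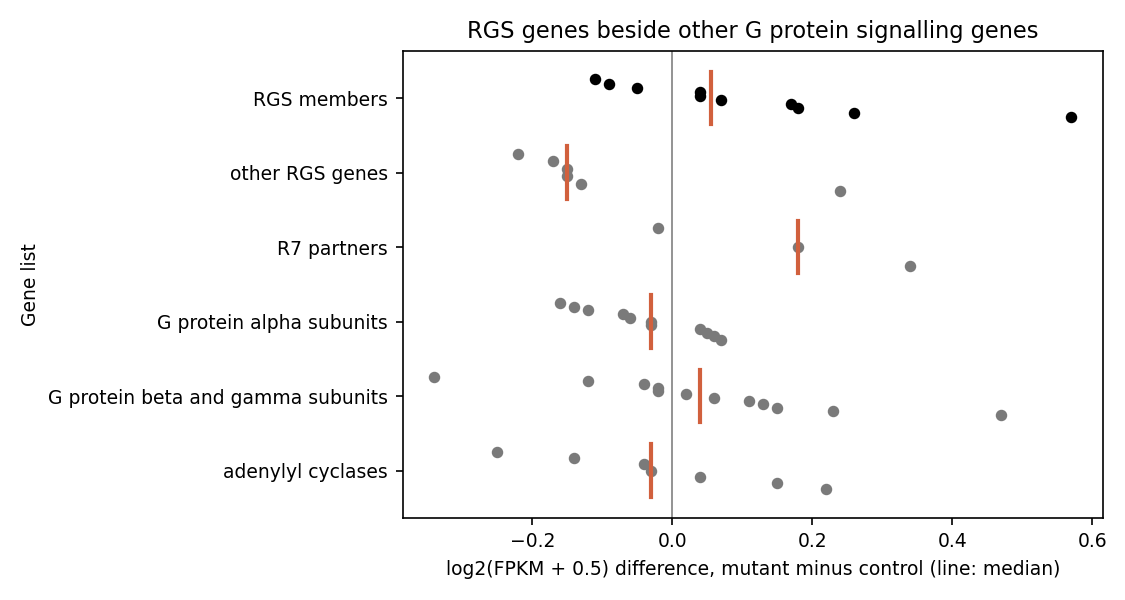
Log2(FPKM + 0.5) difference, mutant minus control, of each tested gene in the RGS set and in 5 related lists, with the list median as a vertical line. The 10 RGS genes lie between -0.11 and 0.57, and the lowest point of the 6 lists is Gng7 at -0.34.

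Sp family proteins bind the GC box, GGGCGG, so the starts of the RGS genes were searched for that motif on both strands, in the 250 bases before each start site in RefSeq (GRCm38.p6). RefSeq entries matched 8 of the 10 genes, all but Rgs14 and Rgs20, with 10 start sites in all. A GC box lay before 5 of these 10 starts, against 32.7% of the 32851 starts in the table. The GC content of the 10 windows was 53.2 to 76.4%, all above the median of 52.4% over all starts. The part of GC content in the share of starts with a box was not tested. Rgs2 had 4 boxes, Rgs10, Rgs16 and Rgs17 had 2 each and Rgs9 had 1. Overlapping matches were counted separately, as in Rgs16, where the boxes share a base. Rgs4, Rgs7 and all 3 starts of Rgs8 had none. The sequences of Rgs2, with the most boxes, of the striatal gene Rgs9 and of Rgs4, with none, are shown 5′ to 3′ on the gene's strand, which is minus for all 3, with GC boxes in capitals; they are chr1:144004150-144004399, chr11:109298182-109298431 and chr1:169747643-169747892.
Rgs2: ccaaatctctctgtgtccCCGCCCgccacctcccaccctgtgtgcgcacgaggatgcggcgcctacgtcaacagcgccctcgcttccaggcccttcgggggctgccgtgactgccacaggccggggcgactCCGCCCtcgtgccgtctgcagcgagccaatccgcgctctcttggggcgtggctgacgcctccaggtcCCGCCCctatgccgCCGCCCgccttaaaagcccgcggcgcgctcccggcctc
Rgs9: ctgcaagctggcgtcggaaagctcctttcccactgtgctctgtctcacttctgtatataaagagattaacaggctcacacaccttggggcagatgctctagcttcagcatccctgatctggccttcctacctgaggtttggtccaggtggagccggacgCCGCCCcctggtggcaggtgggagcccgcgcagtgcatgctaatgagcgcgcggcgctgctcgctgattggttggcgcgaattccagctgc
Rgs4: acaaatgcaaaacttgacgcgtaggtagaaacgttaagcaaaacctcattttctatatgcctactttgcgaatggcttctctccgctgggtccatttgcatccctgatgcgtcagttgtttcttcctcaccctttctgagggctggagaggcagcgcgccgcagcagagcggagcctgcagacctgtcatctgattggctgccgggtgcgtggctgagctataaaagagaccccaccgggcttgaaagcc
In Rgs2 the boxes begin 232, 119, 52 and 38 bases before the start, and in Rgs9 the box begins 91 bases before it. The log2 differences of the 5 genes with a box were -0.11 (Rgs2), 0.04 (Rgs9), 0.57 (Rgs10, from 1 library), 0.07 (Rgs16) and -0.09 (Rgs17). Those of the 3 without were 0.18 (Rgs4), 0.04 (Rgs7) and -0.05 (Rgs8). None of the members passed the adjusted threshold, so the calls cannot compare genes with a box and genes without. A match of letters is not a measured binding site.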

How the data were processed

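RNA-seq of 3 control and 3 mutant libraries was analysed from 1 table of the whole series. Per the file headers, the authors deposited an FPKM column and a count column per library; TopHat, Cufflinks 2.1.1 and GRCm38.p4 are listed per the submitters' processing notes. For the annotation, strand use and multiply mapped reads, the method is not given in the sources used here. The deposited count columns are not whole and were used as a scaled signal: 97.7 to 97.9% of values of at least 0.01 were whole multiples (to within 0.1) of the most frequent low value of the library, by which totals were divided to estimate fragments. No count test was run.

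Library columns were matched to groups by sample codes. Symbols came from GENCODE M21, which matched 46483 of 47062 identifiers. The log2(FPKM + 0.5) values of the genes averaging an FPKM of 0.5 or more were fitted with limma 3.58.1 (R 4.3.3), with a variance trend and group as the sole term, in all 6 libraries. Tests were two-sided with Benjamini-Hochberg adjustment over all genes. Fold changes on this scale understate those of low genes. The fit was tested on simulated data. Alternatives were other pseudocounts, filters and scalings, robust limma, a replicate block, scaled counts and each library left out. Correlations of log2 values between libraries were 0.943 to 0.953.

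The 10 genes and the lists (other RGS genes, R7 partners, G protein subunits, adenylyl cyclases and cell type markers) were chosen with earlier results of these data known. Named genes are the 10, every other RGS gene and R7 partner, genes of the lists past the threshold with up to 4 others of the smallest p, and the 3 nearest genes to the member with the smallest p. Atp6v1h was named after its position and values were seen. The comparison of FPKM with scaled counts within a gene and the promoter search were likewise chosen with the data in view. A list of markers shared by both projection neuron types is not reported here. Lists of vessel, astrocyte and oligodendrocyte markers (9, 7 and 7 genes) had median log2 differences of 0.066, 0.203 and -0.091. No gene of these lists was past the adjusted threshold or at an unadjusted p under 0.05 on FPKM (limma). On scaled counts 1 astrocyte marker, Gfap, had an unadjusted p under 0.05, against 6.42% of all genes. It was higher in the mutants (log2 difference 0.72, unadjusted p = 0.0245, adjusted p = 0.67, limma).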

Additional observations from a re-analysis of the deposited data

How the results depend on the processing

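The RGS result did not turn on the processing. In each of the 16 alternatives run, 0 of the 10 genes passed the adjusted threshold with limma. In each, 1 of the 10 genes, Rgs20, had an unadjusted p under 0.05. Over all genes that share was 5.65% in the fit reported above and 6.42% on scaled counts. The alternatives refit the same libraries, so a repeated call is not independent support. The log2 difference of Rgs20 ran from 0.20 to 0.30 and its adjusted p from 0.534 to 0.999. Rgs14 lay under the filter of a mean FPKM of at least 1. The median of the 10 genes was 0.056 as reported and between 0.003 and 0.084 when any 1 library was dropped (0.003 without mutant replicate 1, 0.021 without mutant replicate 2, 0.084 without mutant replicate 3). Signs turned in 9 member results, none of them past the threshold: on scaled counts for Rgs8 (0.005) and Rgs10 (-0.04), and with 1 library left out for Rgs4 (range -0.11 to 0.42), Rgs8 (-0.095 to 0.023), Rgs9 (-0.05 to 0.12), Rgs10 (-0.12 to 0.94) and Rgs16 (-0.007 to 0.17).

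Counts over all genes moved more. The count past the adjusted threshold was 10 as reported, 47 with no filter, 5 with the replicate block, 23 on scaled counts, and from 12 to 23 in the fits lacking 1 library (19 without control replicate 1, 20 without control replicate 3, 18 without mutant replicate 1 or 2, 23 without mutant replicate 3). The count by the study's rule was 57 as reported, 90 and 37 with pseudocounts of 0.1 and 1, 29 in an alternative added with the data known, which also asked for scaled counts averaging 10 or more, and 73 to 86 with 1 library left out (86 without control replicate 2). The cause was not tested. Same-numbered libraries had correlations of deviations of 0.00246, 0.0372 and 0.0433, and those with different numbers of -0.0683 to 0.0328. The labels do not say if the numbers pair the samples, and such small values cannot decide it. The block changed no call of the 10 genes. The planned count tests were not run, because the deposited counts are scaled and whole fragment numbers were only estimated from them.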
